A study of Mus musculus with 5 samples.

Results

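The genes described here carry out DNA replication and mitosis, and were measured in granulosa cells of the mouse ovary on Affymetrix 3′ expression arrays. The list holds 50 genes, 25 of mitosis and 25 of replication. A gene was taken from the probe sets that the platform annotation gives to its symbol alone, and was represented by the probe set of highest mean log2 intensity. Of the 50 genes, 49 were measured in this way, among 18194 genes in all; Ccnb1, which encodes cyclin B1, had no such probe set and was not analysed here. The 5 arrays form 5 groups of 1 array each: granulosa cells of CEBPα/β conditional KO mice at 4, 8 and 24 h after human chorionic gonadotropin (hCG), and of wild-type (WT) mice at 8 and 24 h. All animals had first been given equine chorionic gonadotropin (eCG) for 48 h, which drives follicle growth, and hCG then took the place of the luteinizing hormone surge that triggers ovulation. The KO genotype is CEBPα/β fl/fl fl/fl, floxed for Cebpa and Cebpb, together with Cyp19-cre, a Cre recombinase under control of the aromatase gene Cyp19, which is active in granulosa cells. The WT genotype is given as wild type, with no statement on floxed alleles. Age moved with time: it was 23 days on the arrays at 4 and 8 h, and 24 days on those at 24 h. The labels do not say how many animals gave the cells of an array.

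Before a cell divides, the MCM helicase is loaded onto replication origins in G1, with the help of Cdc6 and Cdt1, and is switched on in S phase, when polymerases copy the DNA. Mitotic genes are transcribed later, in G2 and M, when cyclin B with CDK1 drives entry into mitosis and the anaphase-promoting complex ends it. Granulosa cells of growing follicles divide under follicle-stimulating hormone, and the luteinizing hormone surge makes them leave the cell cycle and become luteal cells. C/EBPα is known in other tissues as a factor that restrains proliferation. The comparisons below ask how far replication and mitosis genes are down by 24 h, and whether the KO cells differ.

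With 1 array a group there are no replicates, and no single comparison has a test or an error. A size rule stands in, under which 2 intensities must lie 2-fold apart or more (1 on the log2 scale) and the larger must reach a floor of 22, the 40th percentile of all intensities. Of the 49 genes, 48 were above the floor in every comparison between 8 and 24 h; the exception, Tyms (thymidylate synthase), read 13 at 24 h and 17 at 8 h in KO cells, and 12 and 19 in WT cells. The targeted genes were lower on the KO arrays: Cebpa read 38 at 24 h and 19 at 8 h in KO cells, against 352 and 685 in WT cells, and Cebpb read 85 and 1127, against 3976 and 7436. The 10 measured granulosa markers were above the floor on all arrays. Median intensity was 31 or 32 on the 4 arrays at 8 and 24 h, and 54 on the KO array at 4 h, which stood apart in RNA controls as well and is described last.

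Replication and mitosis genes were lower at 24 h than at 8 h in both genotypes. Of the 48 genes above the floor, 11 passed the rule as lower in KO cells and 13 in WT cells, and none passed as higher in either. Over all genes, 5.26% passed as lower and 6.85% as higher in KO cells, and 6.45% as lower and 5.55% as higher in WT cells. The median log2 difference of the 48 genes was -0.66 in KO cells and -0.82 in WT cells, beside medians of 0.07 and 0.00 over all genes above the floor. All 48 lay lower at 24 h in WT cells, and 44 in KO cells. Of the genes that passed, 10 did so in both genotypes, 3 in WT cells alone and 1 in KO cells alone. The overlap over all genes was not counted, and whether the genotypes differ in these genes was not tested. With the mean of all probe sets of a gene in place of the brightest, 7 of the 11 and 8 of the 13 still passed: Aurka, Tpx2 and Top2a did not in either genotype, Nusap1 did not in KO cells, and Ttk and Kif11 did not in WT cells. Ndc80 and Kif20a no longer passed in WT cells after median centring or quantile normalization, nor Top2a in KO cells after the second. In cells taken in bulk, fewer dividing cells and less RNA in each of them cannot be told apart.

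**Figure D1:**
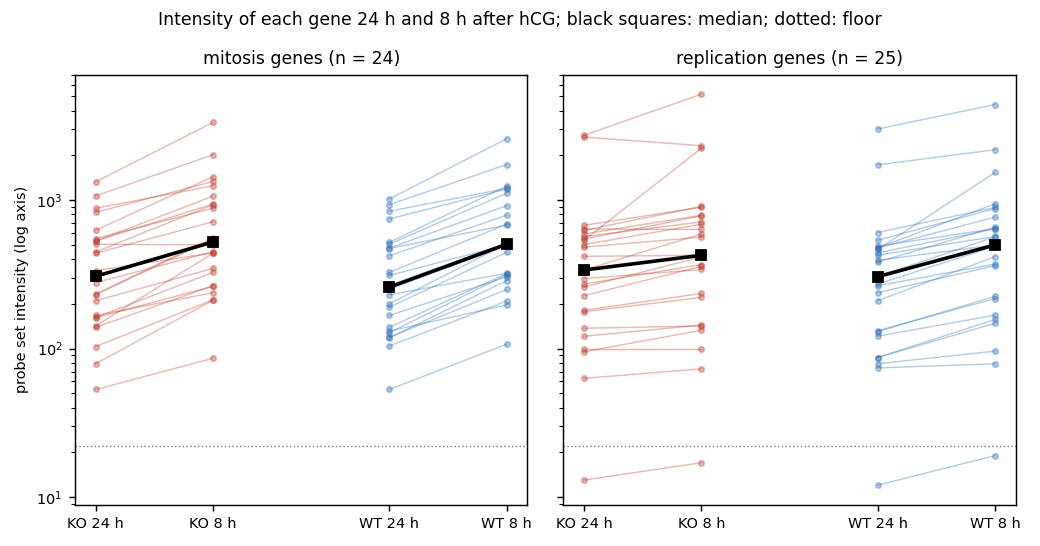
Probe set intensity (log axis) of the 24 mitosis and 25 replication genes on single arrays at 24 h and 8 h after hCG, KO cells in red and WT cells in blue, with a line for each gene and black squares for the median. Lines run lower at 24 h than at 8 h for nearly all genes, more steeply for mitosis genes, and Tyms is the gene under the dotted floor of 22.

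A limma fit over the 4 arrays, with genotype and time as terms, gave the time effect averaged over genotypes. Its 1 residual degree of freedom is the difference between the genotypes' changes, not replicate error. Of 48 genes tested, 4 were lower at 24 h at an adjusted p under 0.05 and none higher, where 1.74% of all genes tested were lower and 1.16% higher. Rrm2 differed by -1.89 ± 0.17 (log2, SE; adjusted p = 0.0321), Ube2c by -1.34 ± 0.13 (adjusted p = 0.0375), Cdk1 by -1.23 ± 0.15 (adjusted p = 0.0436) and Tpx2 by -1.30 ± 0.17 (adjusted p = 0.0483), each lower in both genotypes. At an unadjusted p under 0.05 there were 36 of the 48, beside 3278 of 12655 genes. The number called depended on the fit, and was 0 with no filter on low values and 14 with a filter at the 60th percentile.

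Mitosis and replication genes are known to be read by different factors, so the promoters are shown of 3 mitosis genes that fell in both genotypes, of Rrm2, and of the helicase genes Mcm6 and Mcm7. The CCAAT box is bound by NF-Y, the cell cycle homology region (CHR) is bound in mitotic promoters by the DREAM and MuvB complexes, and E2F sites time replication genes; C/EBP proteins, despite their name, prefer another motif. Each sequence is the 250 bases upstream of the RefSeq start (GRCm38.p6), 5′ to 3′ on the gene's strand, with matches to CCAAT box, CHR or E2F letters in capitals. They lie at chr2:164769679-164769928 (plus strand) for Ube2c, chr10:69352913-69353162 (minus strand) for Cdk1, chr11:99024190-99024439 (minus strand) for Top2a, chr12:24708004-24708253 (plus strand) for Rrm2, chr1:128359706-128359955 (minus strand) for Mcm6 and chr5:138171884-138172133 (minus strand) for Mcm7.
Ube2c: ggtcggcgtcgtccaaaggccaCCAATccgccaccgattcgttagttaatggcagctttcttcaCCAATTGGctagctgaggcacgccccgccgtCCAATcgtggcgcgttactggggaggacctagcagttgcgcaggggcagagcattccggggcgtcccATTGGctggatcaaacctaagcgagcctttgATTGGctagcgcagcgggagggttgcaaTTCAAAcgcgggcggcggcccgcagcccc
Cdk1: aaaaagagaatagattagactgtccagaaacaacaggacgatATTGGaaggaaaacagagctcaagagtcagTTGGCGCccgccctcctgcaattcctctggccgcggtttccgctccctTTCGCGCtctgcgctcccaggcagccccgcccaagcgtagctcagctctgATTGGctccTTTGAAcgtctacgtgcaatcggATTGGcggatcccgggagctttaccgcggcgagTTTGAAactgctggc
Top2a: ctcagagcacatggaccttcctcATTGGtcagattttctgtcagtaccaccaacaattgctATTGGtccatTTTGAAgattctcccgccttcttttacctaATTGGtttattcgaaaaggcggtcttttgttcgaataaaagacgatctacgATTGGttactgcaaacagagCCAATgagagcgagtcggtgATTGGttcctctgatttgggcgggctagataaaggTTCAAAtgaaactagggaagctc
Rrm2: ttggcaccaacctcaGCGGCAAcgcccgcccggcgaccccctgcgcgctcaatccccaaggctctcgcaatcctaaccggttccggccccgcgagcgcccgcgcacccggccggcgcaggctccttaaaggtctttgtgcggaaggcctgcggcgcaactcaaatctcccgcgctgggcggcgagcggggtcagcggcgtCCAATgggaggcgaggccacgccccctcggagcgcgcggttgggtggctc
Mcm6: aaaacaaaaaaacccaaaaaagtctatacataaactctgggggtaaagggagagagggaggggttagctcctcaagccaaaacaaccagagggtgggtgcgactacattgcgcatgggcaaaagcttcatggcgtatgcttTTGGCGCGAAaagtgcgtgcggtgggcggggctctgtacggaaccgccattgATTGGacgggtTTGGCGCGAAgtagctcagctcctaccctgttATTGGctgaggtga
Mcm7: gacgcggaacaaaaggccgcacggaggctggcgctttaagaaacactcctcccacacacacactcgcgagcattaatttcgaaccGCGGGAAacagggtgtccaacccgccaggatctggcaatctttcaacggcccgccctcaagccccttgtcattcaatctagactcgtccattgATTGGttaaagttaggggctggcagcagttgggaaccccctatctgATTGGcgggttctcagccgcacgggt
The 3 mitosis promoters held 6, 3 and 6 CCAAT boxes and 1, 2 and 2 CHR matches in the order shown. Of the 6 in Ube2c, 2 overlap in the letters CCAATTGG, which match on both strands. The promoter of Cdk1 also held 2 E2F matches. Mcm6 held 2 CCAAT boxes, 4 E2F matches in overlapping pairs and no CHR match. Mcm7 held 2 CCAAT boxes and 1 E2F match, and Rrm2 1 of each. In all, 9 mitosis genes passed in both genotypes, and the 3 shown held the most CCAAT boxes of those with a promoter. Of the others, Aurka held 2 CCAAT boxes and no CHR match, Prc1 1 CCAAT box and no CHR match, and Plk1 1 and 2.

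The RefSeq table gave a promoter, the first listed for a gene, for 40 of the 49 genes. The letters searched on both strands were CCAAT for the CCAAT box, TTTGAA or TTTAAA for the CHR, TTCCCGC or its variants (TTGGCGC, with TTCGCGC, and also TTGCCGC) for E2F, and TTGCNNAA for C/EBP. A CCAAT box was found in 17 of 21 mitosis promoters (81.0%) and 12 of 19 replication promoters (63.2%), beside 35.9% of 10714 measured genes above the floor and 34.5% of all 27025 promoters. A CHR match was found in 11 mitosis promoters (52.4%) and 4 replication promoters (21.1%), beside 17.3% of the measured genes and 25.5% of all promoters. E2F letters ran the other way, in 2 mitosis promoters (9.52%) and 10 replication promoters (52.6%), beside 13.7% and 7.97%. The C/EBP letters were in none of the 21 mitosis promoters and in 3 replication promoters (Fen1, Mcm3 and Pcna), beside 7.15% and 9.55%. Of 20 E2F matches in these promoters, 1 overlapped a CCAAT box. A match describes the letters and shows no binding.

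**Figure D2:**
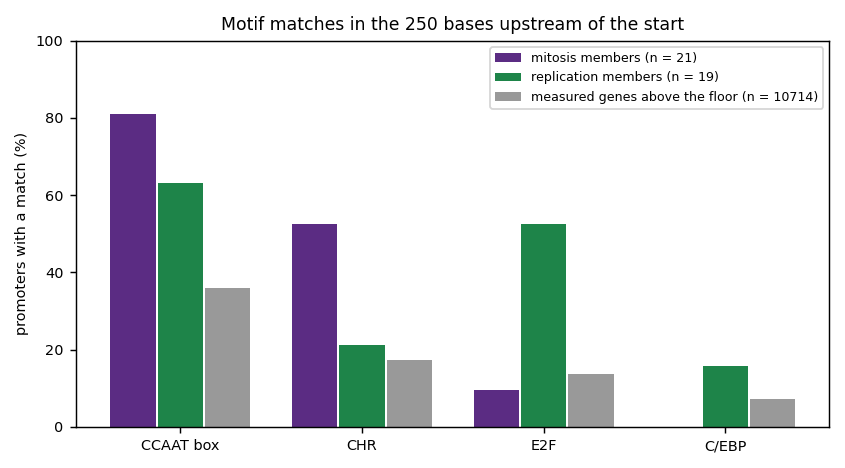
Share of promoters (%) with at least 1 match to each motif in the 250 bases upstream of the start, for 21 mitosis genes, 19 replication genes and 10714 measured genes above the floor. The CCAAT box was frequent in both classes, the CHR in mitosis genes and E2F letters in replication genes.

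Genes that start and end mitosis were among those that fell, 2 of 4 in each genotype. Ube2c encodes the ubiquitin-conjugating enzyme of the anaphase-promoting complex, and its promoter held 6 CCAAT box matches, 2 of them overlapping, and 1 CHR match. It read 1329 at 24 h and 3339 at 8 h in KO cells, and 1017 and 2596 in WT cells. Cdk1, the kinase that drives mitotic entry, read 627 and 1439 in KO cells, and 520 and 1246 in WT cells. In both genotypes the 24 h arrays lay well under the 8 h arrays, by 2.51- and 2.55-fold for Ube2c and by 2.29- and 2.40-fold for Cdk1 in KO and WT cells. Cdc20, the activator of the anaphase-promoting complex, missed the rule with log2 differences of -0.92 and -0.90, while its further probe sets passed in KO cells, at -1.34 and -1.01, and not in WT cells, at -0.88 and -0.68. Ccnb2 (cyclin B2) had the smallest change of this group, 439 at 24 h and 715 at 8 h in KO cells, and 472 and 680 in WT cells. The log2 median of the 4 genes was -1.06 in KO cells and -1.08 in WT cells.

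Most mitotic kinases and their partners passed the rule. Aurka, the kinase of the spindle poles, read 142 at 24 h and 439 at 8 h in KO cells, a fall of 3.09-fold, and 190 and 445 in WT cells, a fall of 2.34-fold. Its activator Tpx2 read 233 and 557 in KO cells, and 200 and 510 in WT cells. Aurkb, the kinase of the chromosomal passenger complex, whose probe sets are all of the less specific kind, read 79 and 212 in KO cells, and 119 and 250 in WT cells. Plk1, a kinase of mitotic entry and cytokinesis, passed as well, at 162 and 326 in KO cells and 128 and 314 in WT cells. Birc5 (survivin), a passenger subunit, was the one of the 5 that did not pass, with 551 and 882 in KO cells and 475 and 918 in WT cells. The log2 median of these 5 genes was -1.26 in KO cells and -1.23 in WT cells.

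Spindle checkpoint genes, whose products hold anaphase until every chromosome is attached, had smaller differences, with medians of -0.69 in KO cells and -0.83 in WT cells. Ttk, the checkpoint kinase MPS1, read 161 at 24 h and 263 at 8 h in KO cells, which missed the rule, and 139 and 320 in WT cells, which passed it. Mad2l1 lay at 826 and 1335 in KO cells, and at 747 and 1188 in WT cells, 1.62- and 1.59-fold lower. Bub1 differed by -0.69 and -0.97 on the log2 scale. Its further probe set read 47 and 41 in KO cells, and 27 and 37 in WT cells. Bub1b (BUBR1) was the one mitosis gene with no lower value in KO cells on the probe set of highest mean. It read 504 and 499 there, against 311 and 500 in WT cells. A further probe set of Bub1b read 299 and 317 in KO cells, and 228 and 337 in WT cells, so that both placed the 24 h KO array above the 24 h WT array.

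At the kinetochore, which ties chromosomes to the spindle, Ndc80 of the microtubule-binding complex read 53 at 24 h and 86 at 8 h in KO cells, and 53 and 107 in WT cells, where it passed the rule at 2.02-fold. Cenpa, the histone variant of centromeres, had the largest difference of the 4 in KO cells, 529 and 943, and read 421 and 793 in WT cells. The centromere motor gene Cenpe had the smallest on its brightest probe set, 167 and 238 in KO cells and 131 and 197 in WT cells. Its other probe set read 43 and 139 in KO cells, where it passed, and 82 and 158 in WT cells, so its place among the 4 depends on the probe set. The medians of the 4 genes were -0.71 in KO cells and -0.89 in WT cells.

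Among motors and midzone proteins, which build the spindle and the cleavage site, 3 of 5 passed in each genotype. Prc1, which bundles midzone microtubules, read 447 at 24 h and 931 at 8 h in KO cells, and 326 and 690 in WT cells, and Kif20a, a motor of cytokinesis, read 103 and 213, and 104 and 209. Both passed in both genotypes. Nusap1, a spindle protein, passed in KO cells at 230 and 547, and read 266 and 514 in WT cells. Kif11, the motor that separates the poles, passed in WT cells at 118 and 287, and read 139 and 265 in KO cells. Kif23 had the smallest difference, 335 and 441 in KO cells and 230 and 322 in WT cells. Further probe sets of Kif11 and Kif23 passed in KO cells, each at -1.0. Of the 2 genes of chromosome structure, Top2a (topoisomerase IIα) passed in both genotypes, with 530 and 1064 in KO cells and 506 and 1113 in WT cells. Mki67, the gene of the Ki-67 proliferation antigen, did not, with 880 and 1250 in KO cells and 842 and 1199 in WT cells.

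Replication genes differed less than mitosis genes between the times, with 1 of 24 past the rule in each genotype on the probe set of highest mean. This share, 4.17%, was near that of all genes passing as lower, 5.26% in KO cells and 6.45% in WT cells. The gene past the rule was Rrm2, the inducible subunit of ribonucleotide reductase, which makes deoxynucleotides. Rrm2 read 536 at 24 h and 2240 at 8 h in KO cells, and 466 and 1537 in WT cells, a fall of 4.18-fold in KO cells and of 3.30-fold in WT cells, the largest difference of the 48 genes in either genotype. Its further probe sets read 81 and 591, and 129 and 807, in KO cells, and 164 and 451, and 204 and 638, in WT cells. All 3 probe sets were lower at 24 h in both genotypes. The partner subunit Rrm1 read 568 and 713 in KO cells, and 475 and 768 in WT cells.

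None of the 10 origin licensing and helicase genes passed on the probe set of highest mean, and their medians were -0.40 in KO cells and -0.71 in WT cells. Mcm5, a helicase subunit, had the largest difference, with 626 at 24 h and 907 at 8 h in KO cells and 476 and 945 in WT cells. A further probe set of Mcm5 passed as lower in both genotypes, at 107 and 247 in KO cells and 110 and 263 in WT cells, and one of Gins2 passed in WT cells. Mcm7, another subunit, read 2655 and 2327 in KO cells, and 1728 and 2185 in WT cells. Of its 4 probe sets, 2 lay higher at 24 h in KO cells (log2 differences of 0.19 and 0.23) and 2 lower (-0.21 and -0.16), while all 4 lay lower in WT cells. The subunit Mcm6 read 639 and 634 in KO cells, and 490 and 643 in WT cells, and its further probe set above the floor differed by 0.21 and -0.42. The licensing factors Cdc6 and Cdt1 differed by -0.49 and -0.42 in KO cells, and by -0.77 and -0.78 in WT cells.

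The 8 genes of polymerases, clamp and ligation had medians of -0.33 in KO cells and -0.58 in WT cells. Pcna, the sliding clamp, read 2731 at 24 h and 5180 at 8 h in KO cells, and 3016 and 4404 in WT cells, and was the one of the 8 with the larger difference in KO cells. Prim1, a primase subunit, had the largest difference in WT cells, 210 and 416, and read 227 and 358 in KO cells. Pola1, a subunit of polymerase α, read 137 and 142 in KO cells, and 121 and 168 in WT cells. Lig1, the replicative ligase, had the smallest difference in WT cells, at 426 and 569, and read 482 and 563 in KO cells. Of the S phase cyclins, Ccna2 (cyclin A2) differed by -0.81 in KO cells and -0.89 in WT cells. The E cyclins, which act at the G1 to S transition, had the smallest differences of the 3 on the probe sets of highest mean. Ccne1 read 99 and 99 in KO cells and 79 and 96 in WT cells, and Ccne2 read 63 and 73, and 74 and 79. A further probe set of Ccne1 read 59 and 66 in KO cells. In WT cells that probe set read 56 and 99, a log2 difference of -0.82, near that of Ccna2. Further probe sets of Fen1 (-1.06), Rrm1 (-1.10) and Ccna2 (-1.21) passed as lower in KO cells, and one of Prim1 (-1.08) in WT cells. Uhrf1, which keeps DNA methylation through replication, read 502 and 688 in KO cells, and 441 and 640 in WT cells.

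**Figure D3:**
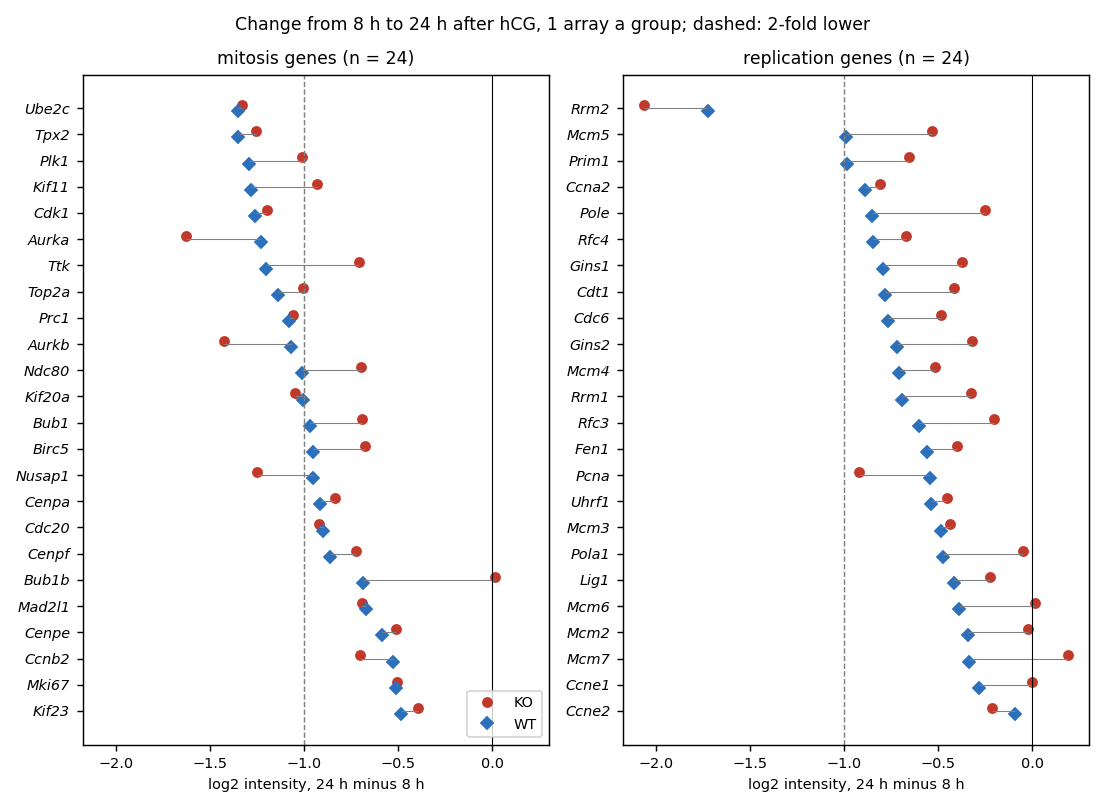
Log2 intensity at 24 h minus 8 h for each of 24 mitosis and 24 replication genes above the floor, in KO cells (red circles) and WT cells (blue diamonds), 1 pair of arrays each. The dashed line marks the 2-fold rule, which 10 mitosis genes passed in KO cells and 12 in WT cells, and Rrm2 alone among replication genes.

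Set against each other, replication genes lay above mitosis genes in their 24 h minus 8 h differences in both genotypes. The median of replication genes was -0.39 and that of mitosis genes -0.88 in KO cells, and -0.65 and -0.99 in WT cells, which is a difference between classes of 0.49 in KO cells and 0.34 in WT cells. Of the 24 replication genes, 22 lay above the mitosis median in each genotype, with Rrm2 below it in both, Pcna below it in KO cells and Mcm5 below it in WT cells. With the mean of all probe sets of a gene, the difference between classes was 0.26 in KO cells and 0.14 in WT cells, and without the less specific probe sets, whose names end in _s_at or _x_at, it was 0.38 and 0.19. The difference between classes kept its sign under these alternatives and has no test. In WT cells it rested largely on the probe sets of highest mean. The further probe sets above the floor had WT medians of -0.60 for replication genes (23 probe sets) and -0.62 for mitosis genes (16 probe sets), nearly level. In KO cells their medians stayed apart, at -0.54 (23 probe sets) and -1.0 (15 probe sets).

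No replication or mitosis gene passed the rule between genotypes at either time on its probe set of highest mean. Over all genes, 1.58% passed as higher and 4.05% as lower in KO cells at 8 h, and 3.13% and 3.92% at 24 h. At 8 h the log2 differences, KO minus WT, ran from -0.32 (Ndc80) to 0.54 (Rrm2) around a median of 0.01. At 24 h they ran from -0.59 (Aurkb) to 0.70 (Bub1b) around a median of 0.20, beside 0.05 over all genes. At 24 h, 39 of the 48 genes lay higher in KO cells, 18 of 24 mitosis and 21 of 24 replication genes, where 54.5% of all genes did; at 8 h it was 25 of 48, where 47.6% of all genes did. In the limma fit no gene of the list, and none of the 12655 tested, had a genotype effect at an adjusted p under 0.05; at an unadjusted p under 0.05 there were 3 of the list and 1450 in all.

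After Bub1b, the largest differences above WT at 24 h were in Cdt1, which read 592 in KO cells and 382 in WT cells, Mcm7 and Kif23. On the probe set of highest mean, all 10 licensing and helicase genes lay above WT at 24 h, with a median of 0.39, and their median at 8 h was -0.02. Further probe sets lay below WT at 24 h in 4 of them, Mcm3 (-0.87), Mcm2 (-0.49), Mcm4 (-0.08) and Mcm5 (-0.04). Below WT at 24 h were both Aurora kinase genes, Aurka at -0.42 and Aurkb at -0.59, with Ccne2, Nusap1, Pcna, Ccnb2, Rfc4 and Kif20a at -0.23 to -0.01.

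The direction at 24 h depended on which probe set of a gene was read. Of 38 further probe sets of these genes above the floor at 24 h, 22 lay higher in KO cells, 15 lower and 1 level, with a median of 0.12, and with the mean of all probe sets 27 of 48 genes lay higher, 13 of 24 replication genes among them. Rrm2 was 0.20 on the probe set of highest mean, and -1.02 and -0.66 on the others. Rrm1 was 0.26 on the first and -1.03 on another, at 55 in KO cells and 112 in WT cells. The -1.02 of Rrm2 and the -1.03 of Rrm1 passed the rule as lower in KO cells. Besides the 4 helicase genes, Cenpe (-0.93), Uhrf1 (-0.73), Cdc20 (-0.47 and -0.44), Fen1 (-0.46), Ccna2 (-0.19) and Tpx2 (-0.13) were likewise above WT on the first probe set and below it on another. Rfc4 was below WT on the first and above it on another, at 0.31. The probe sets of Mcm7, at 0.62, 0.59, 0.32 and 0.21, Mcm6, at 0.38 and 0.46, Gins2, at 0.42 and 0.51, and Prc1, at 0.46 and 0.37, lay on the KO side throughout. Within genes, probe sets differed with an SD of 0.38 on the log2 scale at 24 h and 0.21 at 8 h, which is as large as most of these differences.

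**Figure D4:**
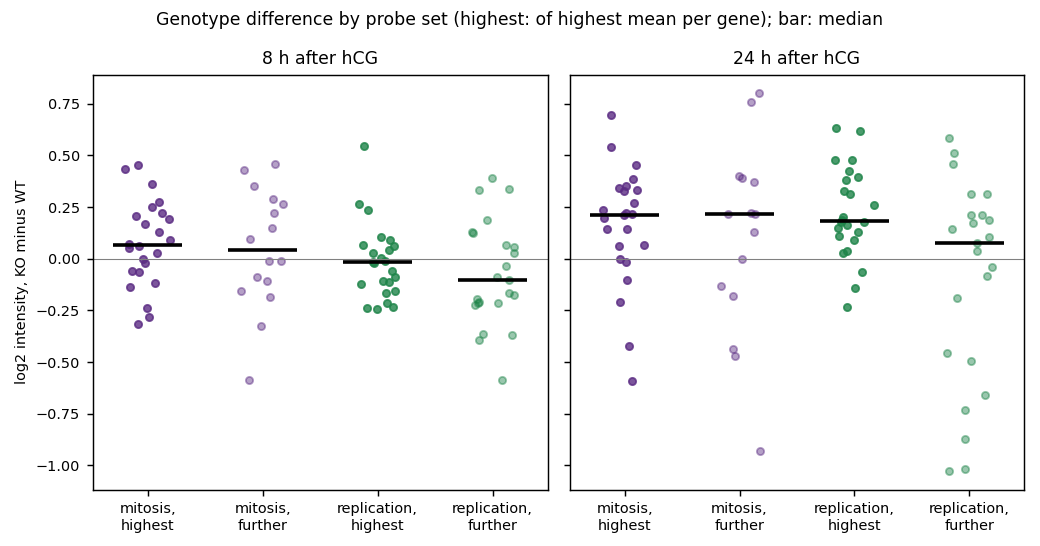
Log2 intensity, KO minus WT, at 8 h and 24 h after hCG, for the probe set of highest mean of each gene and for its further probe sets above the floor, with mitosis genes in purple, replication genes in green and bars at the median. At 24 h the probe sets of highest mean have medians of 0.21 and 0.18, and the further ones spread down to -1.03.

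The change from 8 to 24 h was compared between genotypes as KO change minus WT change. No gene of the 48 reached a difference of 1 on its probe set of highest mean, where 5.04% of all genes did upwards and 3.09% downwards. Both further probe sets of Rrm2 reached it downwards. They changed by -2.65 and -2.87 in KO cells, against -1.65 and -1.46 in WT cells. The median was 0.30 for replication genes, 0.08 for mitosis genes and 0.07 for all genes. Of 24 replication genes, 21 were less far down in KO cells than in WT cells, and of 24 mitosis genes 17, where 56.6% of all genes lay on that side. Bub1b (0.70), Pole, the catalytic subunit of polymerase ε (0.60), and Mcm7 (0.53) had the largest values, and Aurka (-0.40), Pcna (-0.38) and Aurkb (-0.35) the lowest. On its other probe set Aurkb was the less far down in KO cells, by -1.08 against -1.23 in WT cells. After each array was centred on its median, 10 of 24 mitosis genes and 19 of 25 replication genes lay on the KO side, with medians of -0.01 and 0.19. With the mean of all probe sets it was 13 of 24 and 15 of 24.

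Markers of other cells moved with the same arrays. The 15 stroma and smooth muscle markers summed to 13212 at 24 h and 6591 at 8 h in KO cells, and to 19546 and 29580 in WT cells, with 14, 14, 14 and 15 of them at or above the floor. The 14 endothelial markers summed to 802 and 745 in KO cells, and to 1528 and 2412 in WT cells, with 11, 10, 13 and 14 at or above the floor. From 8 to 24 h these lists had medians of 0.69 and 0.20 in KO cells and -0.70 and -0.80 in WT cells, while the replication and mitosis genes lay lower at 24 h in both. At 8 h, 14 of 15 stroma markers and 13 of 14 endothelial markers passed as lower in KO cells. Of all genes 4.05% did, and of the 48 genes none. Granulosa markers summed to 53064 and 46714 in KO cells, and to 55843 and 50812 in WT cells. Their medians from 8 to 24 h were 0.71 in KO cells and 0.64 in WT cells, with lowest values of -4.50 and -2.87. Leukocyte markers summed to 1645 and 1077, and to 2430 and 1763, oocyte markers to 5956 and 6059, and to 5019 and 6492, and erythroid markers to 301 and 268, and to 304 and 413. Theca markers summed to 10161 and 3572, and to 3748 and 6631, and surface epithelium markers to 2310 and 2493, and to 2261 and 1515. The theca median from 8 to 24 h was 0.00 in KO cells, with 3 markers higher and 3 lower, and -2.01 in WT cells. KO minus WT at 24 h, the theca median was 0.14, so the sums do not stand for most theca markers. The part of all these markers in the differences of replication and mitosis genes was not tested.

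Other genes of the same machinery were taken from lists by function. Of 67 further mitotic genes above the floor, 11 passed as lower at 24 h in KO cells and 13 in WT cells, none as higher, which is 16.4% and 19.4% beside the 5.26% and 6.45% of all genes, with medians of -0.59 and -0.76. Cks2, a CDK subunit, read 1770 at 24 h and 4298 at 8 h in KO cells, and 1559 and 4883 in WT cells, and was the one gene of this list past the limma threshold (adjusted p = 0.039). In KO cells Depdc1a, Sgo1, the protector of centromere cohesion, and Cdc25b, a CDK-activating phosphatase, were 2.88-, 2.88- and 2.33-fold lower. In WT cells Nek2, a centrosome kinase, the condensin gene Ncaph and the kinesin gene Kif18b were 2.89-, 2.58- and 2.29-fold lower. Of 41 further replication genes, 2 passed as lower in KO cells (4.88%) and 4 in WT cells (9.76%), shares near those of all genes, with medians of -0.24 and -0.33. Asf1b, a histone chaperone, and Cdc45, a helicase partner, passed in both genotypes, and Clspn, which works with the checkpoint, and Gmnn (geminin), which restrains licensing, in WT cells. None of these lists had a gene past the rule between genotypes at 8 or 24 h.

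Of 20 regulators of cell cycle transcription, none passed in KO cells and 2 passed as lower in WT cells (10.0%), beside 5.26% and 6.45% of all genes, with medians of -0.42 and -0.53. These were the repressive E2F genes E2f7, at 95 at 24 h and 151 at 8 h in KO cells and 52 and 145 in WT cells, and E2f8, at 91 and 174, and 70 and 187. Foxm1, an activator of mitotic genes, read 60 and 112 in KO cells, and 67 and 129 in WT cells. Mybl2, its partner in the MuvB complex, read 70 and 96, and 54 and 91, and E2f1 read 102 and 135, and 84 and 124. All 3 lay lower at 24 h in both genotypes and missed the rule. The retinoblastoma family gene Rb1 read 547 and 494 in KO cells, and 374 and 529 in WT cells. Rbl1 (p107) read 314 and 409, and 283 and 445, and Rbl2 (p130) read 274 and 239, and 243 and 232, the one of the 3 that lay higher at 24 h in both genotypes.

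The KO array at 4 h has no WT partner and was set against the KO array at 8 h after quantile normalization of the 5 arrays. On this array the 3′ probe set of Gapdh was 3.86 times its 5′ probe set, against 0.97 to 1.05 on the other 4 arrays, and that of β-actin was 3.87 times, against 1.36 to 1.5. Of the 49 genes, 4 passed as higher at 8 h than at 4 h and 5 as lower, where 17.9% of all genes passed as higher and 11.9% as lower. Deposited intensities at 4 and 8 h were 780 and 3339 for Ube2c, 667 and 882 for Birc5, 218 and 341 for Rfc3 and 247 and 414 for Rfc4, the last 2 subunits of the clamp loader; these 4 passed as higher at 8 h. They were 5929 and 895 for Fen1, the flap endonuclease, 2692 and 499 for Bub1b, 460 and 99 for Ccne1, 1923 and 441 for Kif23 and 980 and 238 for Cenpe, which passed as lower. With the mean of probe sets Fen1, Ccne1, Kif23, Cenpe and Rfc4 no longer passed. Without the scaling, 30 of the 49 passed as lower and 1 as higher, and Birc5, Rfc3 and Rfc4 did not pass. Of all genes, 6900 of 15198 then passed in either direction. Probe sets within these genes differed with an SD of 0.55 in this comparison, and of 8 further probe sets of the genes that passed, 3 passed as well. Of the other lists, 5 further mitotic genes passed as higher and 3 as lower, led by Cenpo (-1.86), Cenpw (1.80), Cdca3 (1.72) and Cdca5 (-1.43). In further replication genes 3 passed as higher and 4 as lower, led by Pole4 (1.63), Cdc7 (-1.59), Rpa3 (1.51) and Wdhd1 (-1.39). In regulators 4 passed as higher and 1 as lower, led by Rbl2 (2.46), Lin37 (2.34), Lin9 (1.82) and E2f6 (-1.33). The part of the array's RNA controls and scale in these values was not tested.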

How the data were processed

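Granulosa cell RNA was measured on 5 arrays, 1 for each group. The authors' deposited values are probe set intensities in whole numbers on a linear scale; affy and RMA are named, without versions, per the submitters' processing notes. A genome build for the probe sets is not stated by the labels. Log2 was taken of the deposited intensities before every comparison. Of 45101 probe sets, 34958 had 1 gene symbol, 932 several and 9211 none listed; of the first, 34754 identifiers matched a RefSeq gene table. A gene is its probe set of highest mean over the 5 arrays. The fit used limma 3.58.1 in R 4.3.3 on 12655 genes whose mean over 4 arrays reached the floor. It had a variance trend and Benjamini-Hochberg adjustment over all of them. Its code was also run on simulated data with the same spread for all genes and equal changes in both genotypes. That run does not measure error in these arrays. The number of arrays limits precision. The members and lists were chosen with earlier results of these data known. Named with values were members past the size rule, the largest and smallest change in each role, the 4 largest of each other list, and 7 fixed regulators; genes named for disagreeing probe sets were chosen after their values were seen. Alternatives covered probe set choice, scaling, fold threshold, floor and variance trend.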

Additional observations from a re-analysis of the deposited data

Results flagged for a closer look

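On the probe set of highest mean of 3 genes, the change from 8 to 24 h ran in opposite directions in the genotypes, with 1 array a group: Bub1b at 0.01 in KO cells and -0.69 in WT cells, Mcm6 at 0.01 and -0.39, and Mcm7 at 0.19 and -0.34, on the log2 scale. The KO values of Bub1b and Mcm6 are close to 0. Further probe sets ran the same way in both genotypes for Bub1b, at -0.08 in KO cells and -0.56 in WT cells, and for 2 of the other 3 of Mcm7, at -0.21 and -0.35, and at -0.16 and -0.51. The further one of Mcm6 above the floor ran in opposite directions, at 0.21 and -0.42. Ttk, KO minus WT, was 0.21 at 24 h and -0.28 at 8 h. The median of replication genes, KO minus WT, was 0.18 at 24 h and -0.02 at 8 h. None of these differences was tested.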

How the results depend on the processing

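With 1 array a group, no spread between replicates is known, and no error stands behind a single difference. No paired analysis was possible because each group has 1 array. At a 1.5-fold threshold, 25 of 48 genes passed in KO cells and 34 in WT cells from 8 to 24 h. Of all genes, 3639 of 12999 and 3633 of 13054 did. Between genotypes at 24 h 4 passed, beside 2855 of 13052 genes in all. For the difference of changes 2 did, beside 2961 of 13316. Between 4 and 8 h 25 of 49 passed, beside 7442 of 13747, a share near that of all genes. At 3-fold, 2 passed in KO cells and 1 in WT cells from 8 to 24 h, beside 537 of 12999 and 588 of 13054. Between 4 and 8 h 2 did, beside 1622 of 13747. Without the less specific probe sets 1 gene, Rrm2, passed for the difference of changes, beside 1071 of 12968 genes in all. As deposited, 31 of 49 passed between 4 and 8 h, beside 6900 of 15198 genes in all. The difference between class medians, replication minus mitosis, was 0.26 in KO cells and 0.14 in WT cells with the mean of probe sets, 0.38 and 0.19 without the less specific ones, 0.46 and 0.28 after quantile normalization, and 0.50 and 0.38 when low values were set to the floor; in WT cells it was 0.32 after median centring and 0.32 without a floor. The limma time effect called 7 genes with the mean of probe sets, 2 without the less specific ones, 14 with the floor at the 60th percentile, 0 without a floor, 7 after quantile normalization and 1 without a trend, where all genes called numbered 504, 327, 778, 0, 604 and 256, against 367. The cause was not tested. Choosing probe sets without the array at 4 h, added after the data had been seen, left the counts between 8 and 24 h as they were.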
